A study of Homo sapiens with 54 samples.

Results

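Compound kushen injection (CKI) is an injectable extract of medicinal plants, and oxymatrine, the N-oxide of the alkaloid matrine, is one of its main alkaloids. MDA-MB-231, a triple-negative breast cancer line of human origin, was treated for 48 h with CKI from which oxymatrine had been left out (N-Omt, at a dose equivalent to 2 mg/ml CKI) or left untreated (UT). The comparison rests on the 3 N-Omt and the 3 untreated libraries of the labels' batch 2, chosen by treatment, time and batch label, which are 6 of the 54 libraries of the series. Messenger RNA was sequenced in all of them, and the series set CKI beside mixtures from which compounds had been removed.

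A further 4 groups of 3 libraries shared this batch and time: CKI at 2 mg/ml, and CKI without macrozamin (N-Mac), without N-methylcytisine (N-Nme) or without trifolirhizin (N-Tri), each at the equivalent of 2 mg/ml. Libraries of batch 1 at 48 h held, among others, untreated cells, CKI, CKI lacking both oxymatrine and oxysophocarpine (N-OmtOspc), and oxymatrine with oxysophocarpine alone (OmtOspc). The labels give 2 mg/ml for each of these treatments as well. All groups share the same cell line, and nothing in the labels names a vehicle for the untreated group. A mixture rebuilt from all of its fractions was not analysed here, so that the removal of oxymatrine and the fractionation of the extract cannot be told apart when N-Omt is set against CKI.

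Dividing cells copy their DNA with enzymes whose genes are switched on by E2F factors, and later separate their chromosomes with kinases, kinesins and kinetochore proteins whose genes often carry a cell cycle homology region (CHR) near the start site. Cells under stress turn to other programmes. NRF2 drives detoxifying enzymes, the aryl hydrocarbon receptor (AhR) drives cytochromes P450 of family 1, and ATF4 drives amino acid supply and the stress factor CHOP. MDA-MB-231 cells are mesenchymal in character, lack the oestrogen receptor and secrete inflammatory cytokines such as interleukin-6 and CXCL8.

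The labels' design states 3 biological replicates in each group. Between 19197815 and 23396986 reads were counted on genes in the N-Omt libraries and between 23373761 and 25453736 in the untreated ones. Log expression of any 2 replicates of these groups had a correlation above 0.99 across genes, and no 2 libraries held the same values. The untreated libraries were the more uneven group, with replicate 3 highest and replicate 2 lowest for genes such as CXCL8 and ATF3, given below. Of 10 mesenchymal breast markers all 10 were measured at over 1000 reads in every library, but with N-Omt 7 of them fell and 3 rose (median log2 fold change -0.91). Their sum was 7216 to 7903 normalised counts (CPM, scaled to the library size) in untreated cells and 4061 to 4144 CPM with N-Omt. ESR1 and PGR, the hormone receptors of luminal breast cells, had at most 8 reads. The luminal list also holds keratins that these cells express, and it summed to 2224 to 2346 CPM in untreated cells and to 885 to 917 CPM with N-Omt. Of its 9 tested members 3 rose and 4 fell, with a median log2 fold change of 0.12. Of the markers of HEK-293 cells, a kidney-derived line kept in the same study, PAX2, NEFL, NEFM and LIN28B had at most 1 read, and the 3 that were tested summed to 39.9 to 48.6 CPM in untreated cells and to 33.4 to 39.4 CPM with N-Omt. Of these 3 HEK-293 markers 1 rose and 2 fell. Fibroblast markers summed to 41.2 to 53.4 CPM with N-Omt and to 61.3 to 73.5 CPM in untreated cells. Of the 8 tested 2 rose and 2 fell, with a median of -0.14. All 4 of these sums were lower with N-Omt, although some members of each list rose. The part of these markers in the results was not tested.

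Removal of oxymatrine left a mixture that changed most of the transcriptome. With N-Omt, 11827 of 15115 genes tested (78.2%) were differentially expressed (DE, adjusted p-value under 0.05 in edgeR's quasi-likelihood test) against untreated cells. Of these, 5802 were higher (38.4% of all genes tested) and 6025 were lower (39.9%). At least 2-fold changes were found for 1808 genes that rose (12.0%) and 2055 that fell (13.6%). Because so many genes were called, a group of genes is read below against these shares and against the median of all genes tested, which was -0.01 on the log2 scale. The same measure of CKI itself, in its own comparison with the same untreated libraries, gave 10040 DE genes (66.4%), with 32.3% of genes higher and 34.2% lower. Of these, 1078 rose (7.13%) and 901 fell (5.96%) by at least 2-fold.

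The 2 groups did not overlap in 79.4% of all genes (38.9% with N-Omt higher and 40.5% with it lower). Of those that did not and averaged 10 CPM or more, the largest rises were those of AKR1C1, IL1B, IL1A, AKR1C2, TNFSF15, UCA1, IL24, AOC2, LAMA1 and ANGPTL4. AKR1C1 encodes an aldo-keto reductase that reduces steroids and lipid aldehydes. It measured 1.27, 1.56 and 1.90 CPM in the 3 untreated libraries, 16.8, 15.2 and 17.1 CPM with CKI and 186, 193 and 184 CPM with N-Omt. All 3 N-Omt libraries lay above every CKI library, and these above every untreated one. Its log2 fold change against untreated cells was 6.89 (SE 0.09, adjusted p = 1.86e-32). AKR1C2, a near-identical neighbour whose reads may be shared with AKR1C1, rose by 5.25 on the log2 scale. TNFSF15, a cytokine of the tumour necrosis factor family, went from 6.64 ± 0.993 to 179 ± 3.21 CPM (mean ± SD, n = 3 each) and UCA1, a long noncoding RNA, from 3.76 ± 0.642 to 97.9 ± 1.58 CPM. The amine oxidase gene AOC2 rose by 4.43 and the laminin chain gene LAMA1 by 3.97 on the log2 scale.

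The largest falls were those of LGALS12, FAM111B, MKI67, PKMYT1, KIF18B, SPC25, KIF2C, PIMREG, MCM10 and DMBT1. Apart from LGALS12, which encodes a galectin, and DMBT1, which encodes a secreted scavenger receptor, most of these genes are known for roles in DNA replication or mitosis. LGALS12 measured 18.6, 29.2 and 11.8 CPM in untreated cells and 0.222, 0.0433 and 0.211 CPM with N-Omt, where it rested on at most 5 reads a library. DMBT1 measured 29.2, 36.3 and 27.1 CPM in untreated cells, 31.8, 41.6 and 34.6 CPM with CKI and 0.756, 0.39 and 1.05 CPM with N-Omt. It was not DE with CKI (log2 fold change 0.23, adjusted p = 0.131) and far lower in each N-Omt library (log2 fold change -5.42, SE 0.24, adjusted p = 3.34e-19).

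Genes of cell division had the lowest median of the 28 lists. In a list of 35 mitosis genes all 35 fell with N-Omt, each by at least 2-fold, with a median log2 fold change of -3.99 and a range from -5.69 to -1.22. MKI67, the nuclear antigen of cycling cells, measured 341, 350.4 and 302 CPM in untreated cells, 126, 119 and 129 CPM with CKI and 5.47, 6.54 and 6.11 CPM with N-Omt. The 3 groups did not overlap, and its log2 fold change with N-Omt was -5.78 (SE 0.08, adjusted p = 2.65e-32). KIF2C, a kinesin that takes microtubules apart at kinetochores, measured 162, 164 and 152 CPM without treatment and 3.78, 3.51 and 1.79 CPM with N-Omt. KIF20A, a kinesin of the last step of division, measured 98.1, 107 and 85.0 CPM and 2.54, 2.43 and 2.48 CPM. Both genes were lower in every N-Omt library by more than an order of magnitude. The smallest falls in the list were those of ECT2, a cytokinesis factor (-1.22), and FOXM1, a transcription factor of mitotic genes (-2.05).

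The 35 mitosis genes summed to 4977, 5219 and 4612 CPM in the untreated libraries and to 422, 432 and 424 CPM with N-Omt, against 1999, 2024 and 2028 CPM with CKI. N-Omt was the lowest of the 6 groups of the batch. For 34 of the 35 genes, all but CDC20, the 3 N-Omt libraries lay below every one of the other 15 libraries, which held for 14.0% of all genes tested. Since the values are shares of each library's reads in bulk RNA, fewer dividing cells and less of these transcripts per cell cannot be told apart.

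DNA replication genes fell as a group as well. All 30 listed genes were lower with N-Omt, 29 of them by at least 2-fold, and the median log2 fold change was -2.44. MCM10, which helps to start replication forks, measured 35.5, 38.0 and 30.9 CPM in untreated cells, 25.4, 26.4 and 26.2 CPM with CKI and 0.8, 0.866 and 0.527 CPM with N-Omt. RRM2, the regulated subunit of ribonucleotide reductase, measured 168, 179 and 155 CPM, 107, 102 and 99.5 CPM and 4.31, 4.25 and 3.74 CPM in the same order. Both genes fell by under 2-fold with CKI, and their log2 fold changes with N-Omt were -5.54 and -5.34. The least affected members were GINS3 (-0.71), of the replicative helicase, and POLA2 (-1.41), of the priming polymerase. In CKI's own comparison with untreated cells, 26 of the 30 genes fell, 2 of them by at least 2-fold, with a median of -0.51.

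Homologous recombination genes, which mend double-strand breaks with a sister copy, were lower in 15 of 15 cases with a median of -3.22, against -0.42 with CKI. The helicase gene BLM went from 13.5 ± 0.954 to 0.486 ± 0.0947 CPM. FANCB, of the Fanconi core complex, fell by 1.66 on the log2 scale. PALB2, the partner of BRCA2, was near 0 at -0.17, and its call was lost without N-Omt replicate 1 (adjusted p = 0.246), untreated replicate 1 (adjusted p = 0.0755) or untreated replicate 3 (adjusted p = 0.0831).

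Among 20 regulators of the G1 phase, 5 were higher and 14 lower. CDKN1A, which encodes the inhibitor p21, measured 246, 215 and 274 CPM in untreated cells, 534, 528 and 536 CPM with CKI and 1270, 1198 and 1196 CPM with N-Omt. The 3 groups were fully apart, and the log2 fold change with N-Omt was 2.32 (SE 0.07, adjusted p = 1.24e-24). CCND2, a D-type cyclin, rose by 2.43, whereas CCND1, another D-type cyclin, fell from 749, 777 and 661 CPM to 217, 222 and 222 CPM. E2F2 (-4.77) and CCNE2 (-4.69), both drivers of S phase entry, fell. Without untreated replicate 3 the number of higher members was 3 in place of 5.

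**Figure D1:**
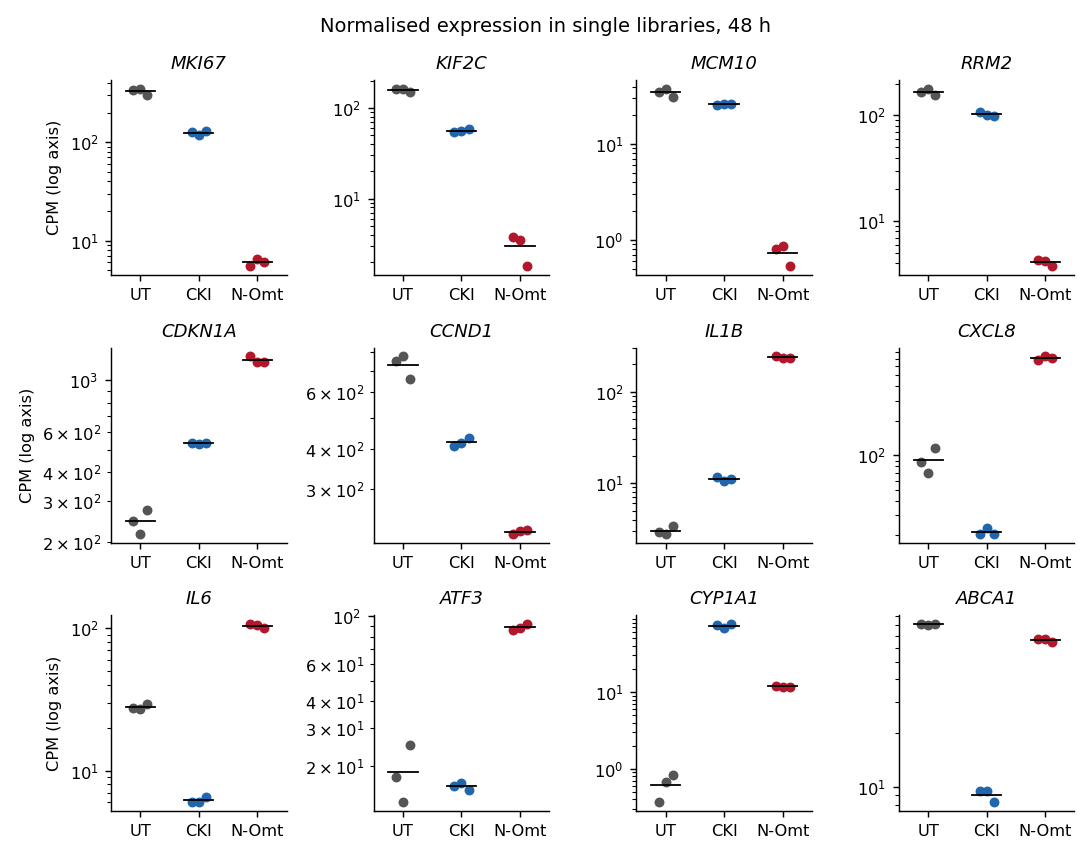
Normalised expression (CPM, log axis, a different range in each panel) of 12 genes in each of the 3 untreated (UT), 3 CKI and 3 N-Omt libraries at 48 h. Points are libraries and bars are group means; the cell division genes MKI67, KIF2C, MCM10 and RRM2 were lowest with N-Omt, IL1B, CXCL8, IL6 and ATF3 were highest with it, and CYP1A1 lay between untreated cells and CKI.

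Because these 2 programmes fell together, the promoters of their members are shown. Windows of 300 bases, from 250 before to 50 after the start of transcription, were taken from RefSeq (GRCh38.p14), which held 29 of the 35 mitosis genes and 26 of the 30 replication genes. The CHR letters TTTGAA or TTCGAA were present on either strand in 22 of the 29 mitosis promoters (75.9%), in 7.69% of the replication promoters, in 16.6% of all 27305 promoters and in 11.2% of those of genes tested. E2F letters (TTTCGCGC, TTTGGCGC or TTTCCCGC on either strand) were present in 16 of the 26 replication promoters (61.5%), in 10.3% of the mitosis promoters, in 2.79% of all and in 4.41% of those of genes tested. Neither set of letters contains the other. Mitosis genes with CHR letters had a median log2 fold change of -3.98 and those without of -4.72. Replication genes with E2F letters had -2.27 and those without -2.90, so that the presence of the letters did not go with a deeper fall inside either list. A match to letters is a description and not proof of a bound site.

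Genes on a chromosome that was set aside were not considered for printing. Among the rest, the 3 mitosis genes with the largest falls and CHR letters in the 150 bases before the start were taken. These were ASPM, PLK1 and HMMR, picked after their values were seen. They encode a spindle pole protein, the polo-like kinase of mitotic entry, and a hyaluronan-binding spindle protein. Their log2 fold changes were -5.11, -4.96 and -4.84. The windows are given 5′ to 3′ on the strand of the gene, with the CHR letters in capitals. They lie at chr1:197146670-197146819, minus strand, at chr16:23678739-23678888, plus strand and at chr5:163460482-163460631, plus strand, and HMMR holds 2 adjoining copies. ASPM carries the letters on the other strand.
ASPM: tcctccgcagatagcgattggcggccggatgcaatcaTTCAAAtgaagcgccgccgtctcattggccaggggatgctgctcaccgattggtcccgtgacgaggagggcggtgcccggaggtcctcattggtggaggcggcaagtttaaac
PLK1: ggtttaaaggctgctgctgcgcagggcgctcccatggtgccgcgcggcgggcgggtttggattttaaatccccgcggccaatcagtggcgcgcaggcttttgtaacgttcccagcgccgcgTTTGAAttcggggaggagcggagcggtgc
HMMR: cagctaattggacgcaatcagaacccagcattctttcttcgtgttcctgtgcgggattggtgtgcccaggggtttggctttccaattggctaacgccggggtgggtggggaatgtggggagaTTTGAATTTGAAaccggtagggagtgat

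Chosen the same way for E2F letters, the replication genes were GINS2, TYMS and CDT1, which encode a helicase subunit, thymidylate synthase and the licensing factor that loads the helicase. Their log2 fold changes were -4.77, -4.25 and -3.36. The windows lie at chr16:85688955-85689104, minus strand, at chr18:657503-657652, plus strand and at chr16:88803639-88803788, plus strand of the same build. Capitals mark GCGGGAAA, the reverse complement of TTTCCCGC.
GINS2: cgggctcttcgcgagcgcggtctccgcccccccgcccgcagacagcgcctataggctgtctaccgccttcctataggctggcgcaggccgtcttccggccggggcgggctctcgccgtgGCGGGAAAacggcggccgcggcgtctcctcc
TYMS: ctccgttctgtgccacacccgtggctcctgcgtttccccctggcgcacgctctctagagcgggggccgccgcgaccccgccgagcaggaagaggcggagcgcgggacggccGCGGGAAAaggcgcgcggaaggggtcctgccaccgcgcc
CDT1: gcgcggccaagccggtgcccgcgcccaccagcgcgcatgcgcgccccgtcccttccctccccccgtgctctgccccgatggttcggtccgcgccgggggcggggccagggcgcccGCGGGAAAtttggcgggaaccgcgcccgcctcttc

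Secreted cytokines moved the other way. Of 20 tested, 16 rose, 3 fell and 1 was not DE, with a median log2 fold change of 1.45. IL1B, which encodes interleukin-1 beta, measured 2.92, 2.76 and 3.37 CPM in untreated cells, 11.6, 10.7 and 11.0 CPM with CKI and 243, 235 and 232 CPM with N-Omt, a log2 fold change of 6.29 (SE 0.10, adjusted p = 3.72e-31). IL1A, its sister gene, measured 3.29, 1.74 and 3.84 CPM without treatment and 123, 129 and 123 CPM with N-Omt. IL24 measured 16.5, 11.2 and 23.7 CPM and 414, 414 and 396 CPM. None of these genes overlapped between the 2 groups.

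CXCL8, a neutrophil attractant, measured 86.8, 69.7 and 116 CPM in untreated cells, 20.7, 23.2 and 20.4 CPM with CKI and 686, 730 and 708 CPM with N-Omt. IL6 measured 27.7, 27.0 and 29.6 CPM, 6.03, 6.01 and 6.54 CPM and 107, 106 and 99.8 CPM in the same order. For both genes CKI lay below the untreated libraries and N-Omt above them, without overlap. Their log2 fold changes with N-Omt were 2.96 (SE 0.10, adjusted p = 1.33e-22) and 1.89 (SE 0.06, adjusted p = 8.98e-24), and with CKI they were -2.08 and -2.18. The members that fell most were TNFSF10, the death ligand TRAIL (-1.87), and CCL5 (-2.36), the latter from 0.66 CPM.

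Cytokine receptors and JAK-STAT genes were mixed, with 16 of 28 higher, 8 lower and a median of 0.26. IL6R, the receptor of interleukin-6, went from 0.803 ± 0.279 to 15.9 ± 0.349 CPM and TNFAIP3, a brake on NF-kappa-B signalling, from 13.0 ± 1.59 to 62.6 ± 0.701 CPM. SOCS3, a feedback inhibitor of JAK-STAT signalling, fell by 1.80 and STAT6 by 1.23 on the log2 scale. Interferon-stimulated genes were lower in 18 of 21 cases and higher in 2, with a median of -0.96. OAS3 (-2.28) and IFITM2 (-2.19), both antiviral effectors, fell, whereas RSAD2, an antiviral enzyme, rose by 0.67 and IFI44 by 0.35. The call of IFI44 was lost with all 54 libraries in one fit (adjusted p = 0.249).

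Stress programmes responded unevenly. Of 20 NRF2 targets 16 rose and 3 fell, with a median of 1.02. With CKI 19 of them rose (median 1.05), and N-Omt was above CKI in 7 and below it in 11 (median -0.33). The largest rises with N-Omt were those of AKR1C1 and AKR1C2, given above, and PGD (-0.25), an enzyme of the pentose phosphate pathway, fell. All 5 AhR targets rose. CYP1A1, the most responsive of them, measured 0.37, 0.669 and 0.821 CPM in untreated cells, 12.1, 11.7 and 11.7 CPM with N-Omt and 73.8, 68.8 and 76.6 CPM with CKI. N-Omt was above every untreated library and below every CKI library, at log2 fold changes of 4.26 (SE 0.17, adjusted p = 2.03e-20) and 6.88 against untreated cells. CYP1B1 rose by 0.93 with N-Omt, AHRR, the repressor of the receptor, by 2.10 and ALDH3A1 by 1.39. The letters GCGTG of the xenobiotic response element were on either strand in 3 of 4 AhR target promoters, in 36.3% of all and in 49.8% of those of genes tested. TGACNNNGC of the antioxidant response element was in 4 of 15 NRF2 target promoters, in 13.6% of all and in 15.1% of those of genes tested.

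ATF4 and CHOP genes were higher in 10 of 11 cases, with a median of 1.11. ATF3, a stress-induced factor, measured 17.8, 13.6 and 25.0 CPM in untreated cells, 16.2, 16.7 and 15.4 CPM with CKI and 86.5, 87.8 and 91.7 CPM with N-Omt. It thus rose with N-Omt (log2 fold change 2.24, SE 0.10, adjusted p = 1.52e-19) and was not DE with CKI (adjusted p = 0.0859). STC2 rose by 2.31 and ATF4 itself by 0.58. DDIT4 fell by 0.14 on the log2 scale, a call that was lost without untreated replicate 3 (adjusted p = 0.0542). Of 10 serine and asparagine synthesis genes 4 rose and 5 fell. ASNS, the asparagine synthetase, rose by 1.43 and PSAT1, of serine synthesis, by 1.04, while the glycine-forming SHMT2 and SHMT1 fell by 1.08 and 1.03 on the log2 scale.

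Chaperones of the endoplasmic reticulum (ER) went down more often than up. Of 18 genes 10 were lower and 5 higher, with a median of -0.25. CRELD2 (-2.40) and SDF2L1 (-1.54), both targets of the ER stress response, fell, whereas the lectin chaperone CANX rose by 0.36 and HERPUD1, of ER-associated degradation, by 0.34. The untreated libraries were spread widely for this list, which summed to 12689, 11127 and 15359 CPM in them and to 11106, 11316 and 11287 CPM with N-Omt. Without untreated replicate 3 the number of higher members was 8 and without replicate 2 it was 3. The letters of the ER stress element, CCAAT and CCACG with 9 bases between them, were on either strand in 6 of 17 of these promoters, in 0.0806% of all and in 0.124% of those of genes tested.

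Heat shock genes were lower in 10 of 12 cases (median -0.33), led by the small heat shock protein HSPB1 (-1.40) and the cochaperone BAG3 (-0.77). HSPH1 rose by 0.36, and DNAJA1 was not DE (0.05, with an interval of 2 SE to either side from -0.05 to 0.14). Of 6 genes for metallothioneins and zinc export, 2 rose and 3 fell. The zinc exporter SLC30A1 rose by 1.39 and MT1X by 0.99, and MT1E (-1.97) and MT2A (-0.80) fell. Metallothionein genes are near-identical copies, so that reads may be split between them.

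Lipid and sugar genes were divided. Of 23 cholesterol synthesis genes 12 rose and 8 fell, with a median of 0.15. The sterol enzymes MSMO1 and EBP rose by 1.39 and 0.78, while PMVK, of the mevalonate pathway, fell (-1.27). Liver X receptor targets were higher in 3 and lower in 4 of 8 cases. ABCA1, the cholesterol exporter, measured 81.1, 80.8 and 81.0 CPM in untreated cells, 67.2, 66.8 and 64.6 CPM with N-Omt and 9.46, 9.46 and 8.26 CPM with CKI. N-Omt was slightly below the untreated libraries (log2 fold change -0.29, SE 0.06, adjusted p = 3.77e-05), whereas CKI was far below them (-3.16). The call with N-Omt was lost with all 54 libraries in one fit (adjusted p = 0.0534). APOE and ABCG1 rose by 1.06 and 0.79 on the log2 scale, and SREBF1, the lipid synthesis factor (-1.94), and LPCAT3, a phospholipid enzyme (-0.81), fell.

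PPAR targets included 5 that rose and 1 that fell among 9. ANGPTL4, an inhibitor of lipoprotein lipase, measured 1.56, 2.67 and 2.59 CPM in untreated cells, 35.0, 36.4 and 33.0 CPM with CKI and 36.2, 33.2 and 34.4 CPM with N-Omt. CKI and N-Omt overlapped and both were well above the untreated libraries, at log2 fold changes of 3.94 and 3.93 (SE 0.11, adjusted p = 2.62e-24). PLIN2, which coats lipid droplets, rose with N-Omt from 65.8 ± 9.00 to 403 ± 5.96 CPM and was not DE with CKI (69.7 ± 1.84 CPM). HADHA, of fatty acid oxidation, fell (-1.26), and ACAA2, of the same pathway, was not DE (0.03). Of 25 glycolysis and hypoxia genes 10 rose and 12 fell. ADM and ENO2 rose by 1.21 and 1.06, while the glycolytic enzymes PFKL (-1.59) and PKM (-1.13) fell.

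Genes of shape and adhesion were mostly lower. Of 38 actin cytoskeleton genes 26 fell and 7 rose (median -0.44). ACTB, which encodes beta-actin, measured 5541, 5780 and 5086 CPM in untreated cells and 2010, 1960 and 1938 CPM with N-Omt, so that every N-Omt library lay far below every untreated one (log2 fold change -1.47, SE 0.05, adjusted p = 1.06e-21). The largest falls of this list were those of DIAPH3 (-4.46), a formin, and IQGAP3 (-4.22), a scaffold, and the largest rises those of RHOB (1.68) and TPM2 (0.51), the latter lost with all 54 libraries in one fit (adjusted p = 0.0594). Of 22 focal adhesion genes 12 fell and 7 rose. The integrin subunits ITGB3 and ITGA2 rose by 2.49 and 1.62, whereas CAV1, of caveolae, went from 763 ± 53.2 to 134 ± 2.69 CPM and ITGB4 fell (-2.03). Targets of YAP and TEAD fell in 9 of 12 cases and rose in 1, LATS2 (0.91). CRIM1 (-1.86) and the receptor kinase AXL (-1.44) fell, and CYR61 was not DE (0.05, interval -0.04 to 0.15).

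Of 19 genes of the matrix and invasion 8 rose and 8 fell. CEMIP, which breaks down hyaluronan, measured 187, 204 and 184 CPM in untreated cells, 13.4, 11.6 and 11.3 CPM with CKI and 15.9, 14.6 and 13.8 CPM with N-Omt. It was low in every treated library, at a log2 fold change of -3.69 with N-Omt (SE 0.07, adjusted p = 8.08e-29). The urokinase gene PLAU fell (-1.33) and the matrix metalloprotease genes MMP3 and MMP13 rose by 3.42 and 2.08, both from under 1 CPM. TGF-beta and ID genes were higher in 12 and lower in 6 of 21 cases. ID2 rose by 3.46 and BAMBI, a decoy receptor, by 1.87, while the ligand gene BMP4 (-2.05) and the inhibitor gene SMAD6 (-1.57) fell.

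Of 9 EGFR family genes 7 rose and 2 fell. EGFR went from 156 ± 12.9 to 491 ± 9.24 CPM and ERBB3 rose by 0.85, whereas ERBB2 (-1.43) and the ligand gene BTC (-3.08) fell. Of 20 genes of ERK output and AP-1, 15 rose and 3 fell. DUSP5, a phosphatase induced by ERK, rose by 2.37 and FOSB, of AP-1, by 2.11, and DUSP4 (-0.73) and ETV4 (-0.22) fell. IGF-related genes were split at 4 higher and 5 lower of 9 (median -0.64). IGFBP1, a binding protein of insulin-like growth factors, measured 46.5, 38.2 and 64.9 CPM in untreated cells, 14.8, 12.3 and 15.5 CPM with N-Omt and 4.19, 4.55 and 4.59 CPM with CKI. N-Omt lay between the other 2 groups, at -1.81 against untreated cells. IGFBP7 fell (-2.22), and IRS2 and IGFBP3 rose by 1.65 and 1.59.

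Apoptosis genes were higher in 11 and lower in 4 of 22 cases, and 7 were not DE. BIK, which promotes cell death, and the death receptor gene TNFRSF10A rose by 1.40 and 1.26. BCL2 (-1.44), which protects from it, and BID (-0.80), which promotes it, fell. The study chose a list of core migration genes on libraries of this series, so that it is not independent evidence. Of 13 of them that were tested, 1 rose, 8 fell and 4 were not DE. PIK3CA rose by 0.24, a call that was lost with all 54 libraries in one fit (adjusted p = 0.0613). Without N-Omt replicate 3 the number that rose was 2, CDH1 being called as well (adjusted p = 0.0343). AKT1 (-1.35), CTNNB1 (-0.74), AKT2 (-0.61), CDK4 (-0.42) and RB1 (-0.40) fell, as did CCND1 above. APC (0.11), CDH1 (0.62) and JAK2 (-0.14) were not DE. ASB2, a ubiquitin ligase subunit, measured 2.63, 2.85 and 2.42 CPM in untreated cells, 3.60, 3.25 and 4.21 CPM with N-Omt and 36.5, 38.1 and 32.9 CPM with CKI. Its rise with N-Omt was small (log2 fold change 0.48) and was lost without untreated replicate 3 (adjusted p = 0.0531) or without N-Omt replicate 3 (adjusted p = 0.0799).

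**Figure D2:**
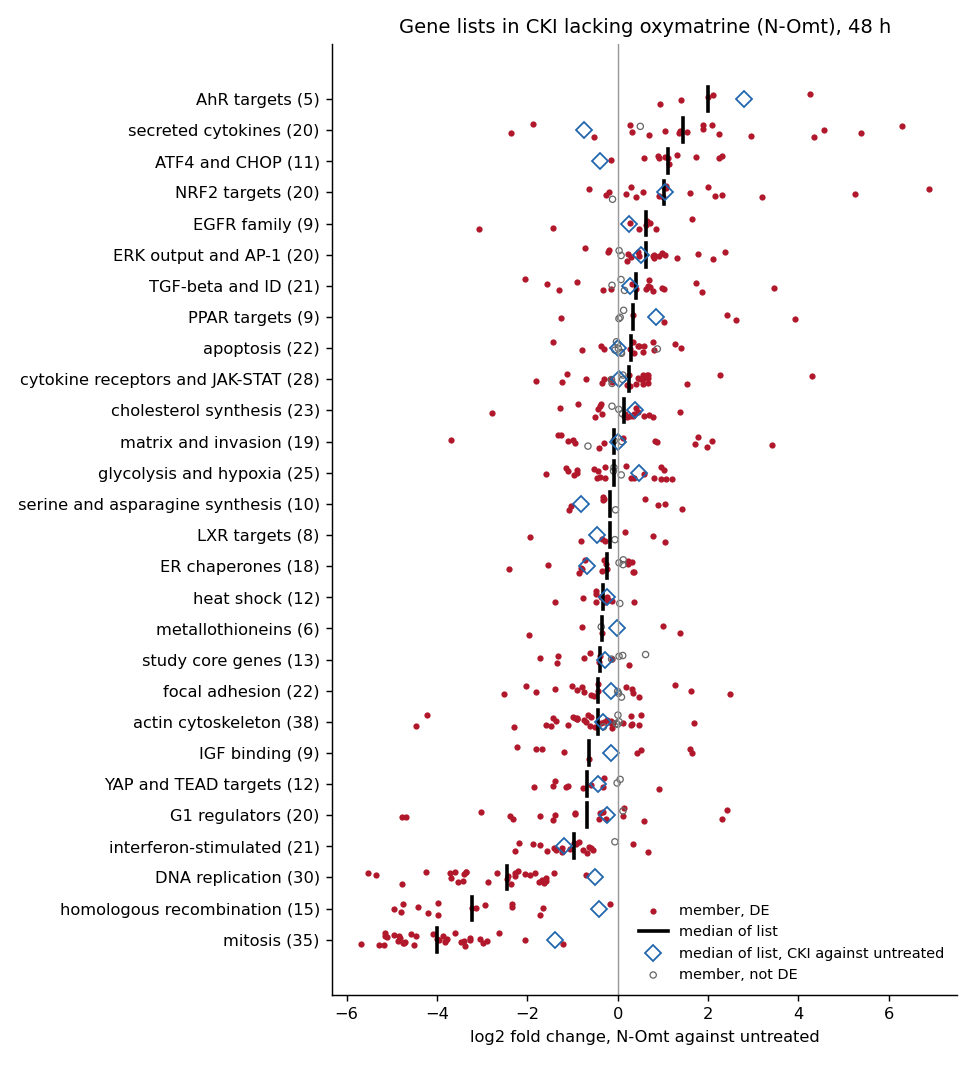
Log2 fold change (x axis) of every tested member of 28 gene lists (y axis, with the number tested) in N-Omt against untreated cells at 48 h. Red points are DE members, open grey points are members that were not DE, black bars are list medians and blue diamonds are the medians of the same lists for CKI against the same untreated libraries; mitosis, homologous recombination and DNA replication lie far to the left of their CKI medians, and secreted cytokines and ATF4 and CHOP genes to the right.

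N-Omt was also set against CKI in the same batch, where the removal of oxymatrine and the fractionation cannot be told apart. The median over all genes tested was -0.02. Here 11538 of 15115 genes were DE (76.3%), 5611 higher with N-Omt and 5927 lower. At least 2-fold differences were found for 1530 genes that were higher (10.1%) and 1920 that were lower (12.7%). The largest differences among well-expressed genes were higher values of CXCL8, KRT34, IL1B, IL6, IL24, RSAD2, CLDN1 and UCA1 and lower values of DMBT1, MCM10, SPC24, PKMYT1, RRM2, F2RL3, KIF18B and SHCBP1.

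CXCL8 differed by 5.04 on the log2 scale (SE 0.11, adjusted p = 1.79e-26) and IL6 by 4.07 (SE 0.07, adjusted p = 1.10e-28). KRT34, a hair keratin, measured 9.16, 6.55 and 13.0 CPM in untreated cells, 2.35, 1.15 and 1.55 CPM with CKI and 40.2, 38.4 and 37.2 CPM with N-Omt. CLDN1, a tight junction protein, measured 3.99, 3.70 and 5.10 CPM, 2.66, 2.08 and 2.25 CPM and 38.8, 34.8 and 36.6 CPM in the same order. RSAD2 measured 18.2 ± 0.286 CPM, 1.83 ± 0.289 CPM and 28.9 ± 0.581 CPM (mean ± SD). In each of the 3 genes CKI was the lowest group and N-Omt the highest, with no overlap. N-Omt and CKI did not overlap in 79.2% of all genes.

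F2RL3, a thrombin receptor, had the opposite order. It measured 4.52, 3.70 and 2.63 CPM in untreated cells, 26.0, 27.9 and 26.8 CPM with CKI and 1.02, 1.13 and 1.21 CPM with N-Omt, so that it rose with CKI (2.89) and fell with N-Omt (-1.70). SPC24, of the kinetochore, measured 25.5, 28.8 and 22.9 CPM, 24.6, 24.0 and 24.0 CPM and 0.756, 0.78 and 0.737 CPM in the same order. It was not DE between CKI and untreated cells (adjusted p = 0.385), whereas N-Omt differed from CKI by -4.99 on the log2 scale (SE 0.16, adjusted p = 7.67e-23).

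By list, N-Omt was below CKI in 35 of 35 mitosis genes (39.2% of all genes tested were lower), with a median difference of -2.63, in 30 of 30 replication genes (-2.01) and in 14 of 15 homologous recombination genes (-2.86). It was above CKI in 16 of 20 secreted cytokines (37.1% of all genes tested were higher), with a median of 3.03, and in 10 of 11 ATF4 and CHOP genes (1.95). ER chaperones were higher in 13 and lower in 4 of 18 cases (0.36). Lower than with CKI were 3 of 5 AhR targets, namely CYP1A1 (-2.62), CYP1B1 (-1.88) and ALDH3A1 (-2.47), whereas AHRR was higher by 0.64. ABCA1 was higher with N-Omt than with CKI by 2.87, and ASB2 was lower (-3.29). Cholesterol synthesis genes were lower in 16 of 23 cases and higher in 0 (-0.45), and glycolysis and hypoxia genes were lower in 17 and higher in 4 of 25 (-0.54). A difference was not found for ANGPTL4 (-0.01, interval -0.16 to 0.15), FN1 (0.07, interval -0.05 to 0.19), MSMO1 (-0.09, interval -0.21 to 0.04) or ENO2 (-0.10, interval -0.21 to 0.01). Each interval spans 2 SE to either side.

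The other 3 removals, at the same dose and time, were set against N-Omt to ask which values were particular to leaving out oxymatrine among the compounds tested. All 3 comparisons share the N-Omt libraries, and their medians over all genes were -0.02, -0.01 and -0.0024 for N-Mac, N-Nme and N-Tri. Against N-Mac 8782 genes were DE (58.1%), against N-Nme 9605 (63.5%) and against N-Tri 9013 (59.6%). Differences of at least 2-fold were found in 8.22% of genes against N-Mac (3.12% higher and 5.11% lower with N-Omt), in 10.9% against N-Nme (5.42% and 5.47%) and in 7.63% against N-Tri (3.76% and 3.88%).

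Cell division genes were lower with N-Omt than with each of the 3. Of the 35 mitosis genes 34 were lower than with N-Mac (30.8% of all genes were lower), 35 than with N-Nme (32.6%) and 34 than with N-Tri (30.6%), with median differences of -1.54, -2.04 and -1.53. MKI67 measured 48.2, 49.6 and 54.9 CPM with N-Mac, 61.8, 63.2 and 59.5 CPM with N-Nme and 39.8, 41.2 and 37.0 CPM with N-Tri, all several times the N-Omt values given above. Replication genes were lower in 29, 24 and 23 of 30 cases (medians -1.08, -1.01 and -0.75) and homologous recombination genes in 15 of 15 cases each (medians -2.16, -2.35 and -1.88). A fall below CKI was nevertheless shared by every removal. Mitosis genes summed to means of 1003, 1271 and 998 CPM with N-Mac, N-Nme and N-Tri, against 2017 CPM with CKI. Replication genes summed to 931, 853 and 749 CPM, against 1764 CPM. Homologous recombination genes summed to 153, 172 and 136 CPM, against 255 CPM.

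Cytokines gave a different order, although their summed level lay above that of CKI (827 to 854 CPM) with every removal. That level was 2676 to 2747 CPM with N-Omt and 4602 to 4841 CPM with N-Mac. It was 2998 to 3338 CPM with N-Tri and 2181 to 2245 CPM with N-Nme. CXCL8 alone made up a large part of these sums. Of 20 genes, 3 were higher and 12 lower with N-Omt than with N-Mac (27.3% and 30.8% of all genes). Against N-Nme 9 were higher and 4 lower (31.0% and 32.6%), and against N-Tri 6 and 7 (29.1% and 30.6%). CXCL8 measured 2273, 2380 and 2273 CPM with N-Mac, 794, 876 and 858 CPM with N-Nme and 1203, 1230 and 1397 CPM with N-Tri, above all N-Omt libraries in each case. IL1B went the other way, at 163, 165 and 150.3 CPM with N-Mac, 37.5, 41.6 and 31.5 CPM with N-Nme and 69.9, 67.1 and 77.5 CPM with N-Tri, all below N-Omt. Each of these 6 differences was DE. IL24 did not differ detectably from N-Nme (0.02, interval -0.17 to 0.22).

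ER chaperones set N-Omt apart from the other removals as well. They were lower in 15, 18 and 17 of 18 cases than with N-Mac, N-Nme and N-Tri, and the summed level was 16754 to 17080 CPM, 22780 to 23348 CPM and 17832 to 18512 CPM in these groups. N-Omt lay below all 3 and above CKI (6983 to 7107 CPM). Cholesterol synthesis genes were higher with N-Omt in 16, 20 and 20 of 23 cases (27.3%, 31.0% and 29.1% of all genes were higher). ATF4 and CHOP genes had median differences of 0.02, 0.06 and 0.18. Their summed level was 2538 to 2636 CPM with N-Omt and 2634 to 2708 CPM with N-Mac. It was 2602 to 2917 CPM with N-Nme and 2543 to 2690 CPM with N-Tri. CKI lay below all of these (1207.5 to 1237 CPM), so that this difference from CKI was shared by every removal.

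Among the genes with the largest changes, AKR1C1 measured 80.6, 81.7 and 76.3 CPM with N-Mac, 44.2, 43.1 and 38.5 CPM with N-Nme and 51.0, 46.8 and 46.5 CPM with N-Tri, so that N-Omt was the highest of the 6 groups. DMBT1 measured 8.14, 11.1 and 5.13 CPM with N-Mac, 4.92, 3.91 and 5.24 CPM with N-Nme and 8.27, 5.78 and 5.67 CPM with N-Tri. Its log2 differences between N-Omt and these groups were -3.50, -2.72 and -3.17 (adjusted p = 2.85e-11, 2.62e-08 and 5.52e-10). CYP1A1 measured 9.05, 10.6 and 10.4 CPM with N-Mac, 3.50, 3.53 and 4.53 CPM with N-Nme and 6.55, 4.86 and 5.25 CPM with N-Tri, and CDKN1A measured 729.5, 717 and 693 CPM, 628, 556 and 548 CPM and 630, 615 and 664 CPM in the same order. Other large changes were not particular to N-Omt. LGALS12, at few reads (-0.11, 0.79 and 0.95 in that order), and F2RL3 (0.64, 0.43 and 0.19) were not DE against any of these groups. IL1A (-0.16) and CLDN1 (0.03) were not DE against N-Mac, nor was KRT34 (0.12) against N-Tri. The fall of the summed actin cytoskeleton list was shared as well. Its mean was 27853 CPM in untreated cells, 19011 CPM with CKI and 16445 CPM with N-Omt. It was lower still with N-Mac (13970 CPM), N-Nme (14920 CPM) and N-Tri (14565 CPM). ACTB was not DE between N-Omt and N-Nme (-0.03).

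**Figure D3:**
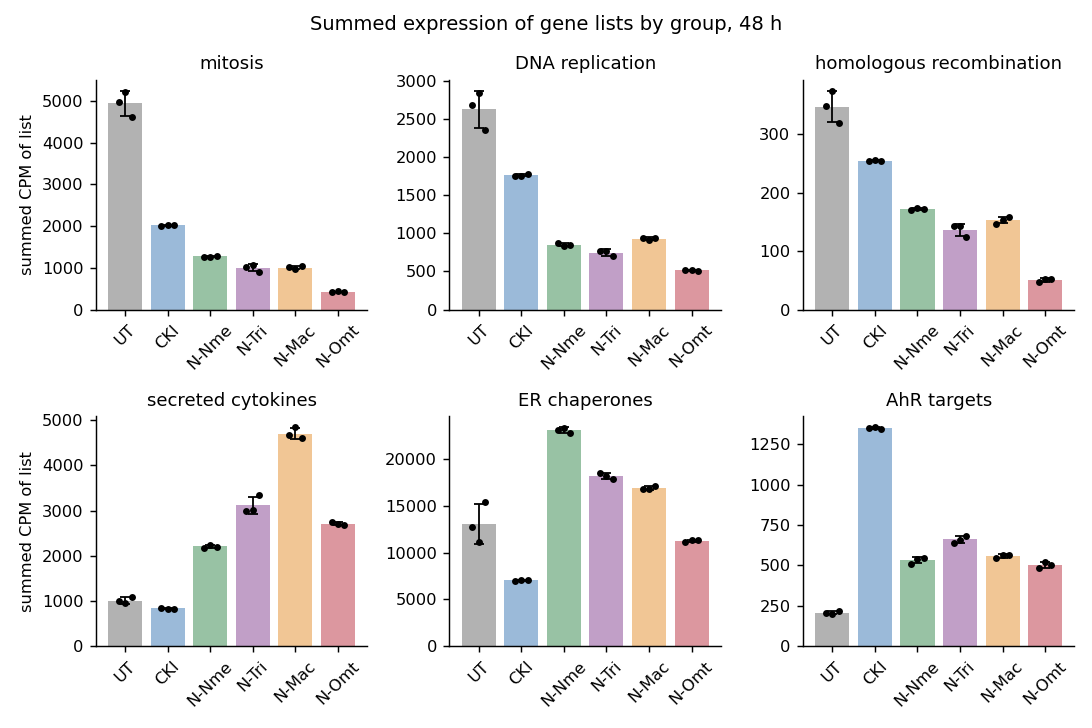
Summed CPM (y axis, from 0) of the tested members of 6 gene lists in the 6 groups of the batch at 48 h. Bars are means, error bars SD and points the 3 libraries of a group; N-Omt was the lowest group for mitosis, DNA replication and homologous recombination, while N-Mac was the highest for secreted cytokines and CKI the highest for AhR targets.

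**Figure D4:**
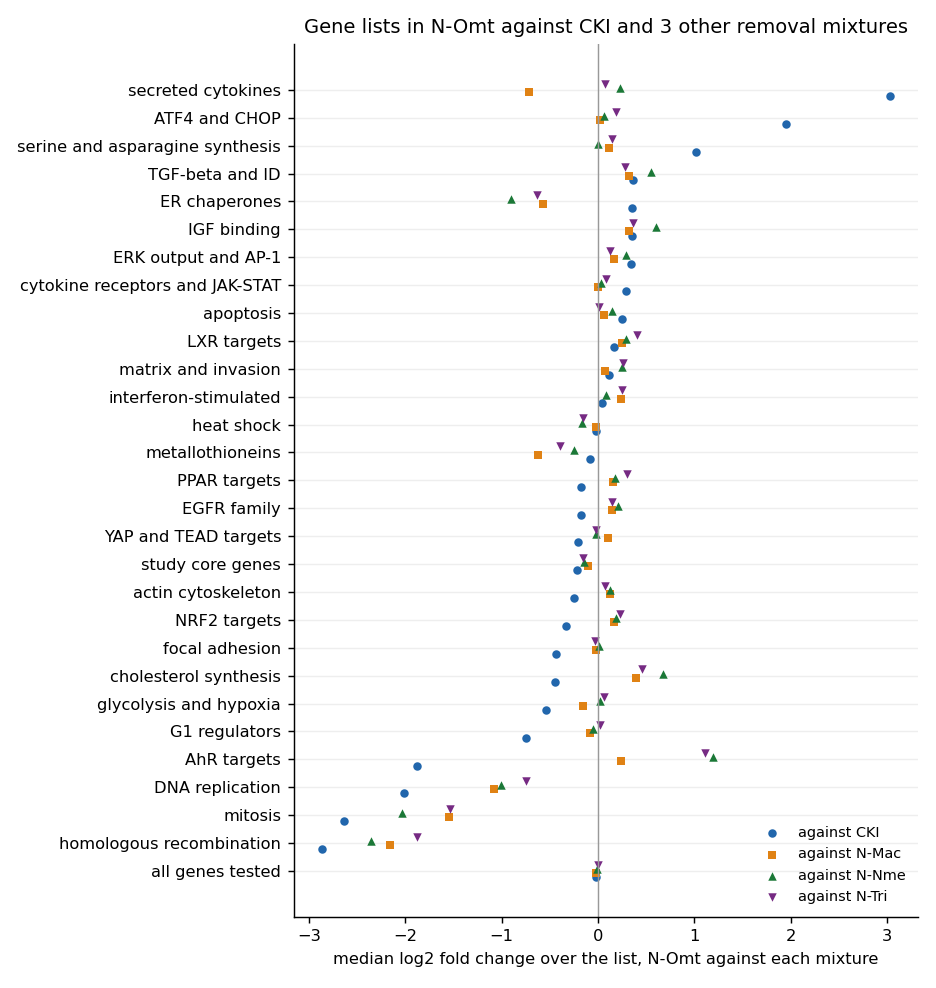
Median log2 fold change (x axis) of 28 gene lists and of all genes tested (y axis) in N-Omt against CKI, N-Mac, N-Nme and N-Tri. Values left of 0 are lower with N-Omt; mitosis, DNA replication and homologous recombination lie left of 0 in all 4 comparisons, whereas secreted cytokines and ATF4 and CHOP genes lie far to the right against CKI and not against the other removals.

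Batch 1 gave a comparison in other libraries, in which oxysophocarpine was removed together with oxymatrine. N-OmtOspc against CKI had 11346 DE genes of 15513 tested (73.1%). Of the 1530 genes at least 2-fold higher with N-Omt than with CKI, 1471 were tested there. The same direction was found for 95.7%, and 85.3% were DE in it, against 49.8% and 36.0% of all genes. Of the 1920 lower genes 1878 were tested. The same direction was found for 90.7%, and 81.7% were DE in it, against 50.2% and 37.1% of all genes. Measured against untreated cells of batch 1, 76.6% of genes were DE with N-OmtOspc. Of the genes that changed at least 2-fold with N-Omt, 92.3% of 1725 that rose and 89.0% of 2032 that fell were DE in the same direction (38.3% of all genes either way).

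The mitosis genes were lower with N-OmtOspc than with CKI in 33 of 35 cases (37.1% of all genes were lower; median -1.51) and the replication genes in 27 of 30 (-1.72), beside a median over all genes tested of -0.0025. MKI67 measured 300.1, 266 and 254 CPM in untreated cells of batch 1, 115, 125 and 136 CPM with CKI and 11.6, 9.15 and 10.1 CPM with N-OmtOspc, a difference of -3.61 between the mixtures (SE 0.11, adjusted p = 2.75e-17). Cytokines were higher in 13 and lower in 3 of 20 cases (36.0% of all genes were higher). Their median was 0.86, beside 3.03 for N-Omt against CKI in batch 2. IL6 measured 15.9, 15.2 and 17.0 CPM, 13.6, 20.1 and 20.0 CPM and 70.0, 91.8 and 91.0 CPM in the same order. In both genes the N-OmtOspc libraries lay beyond every CKI library on the same side as N-Omt in batch 2. For IL6, CKI overlapped the untreated libraries of batch 1, whereas in batch 2 it lay below them. AKR1C1 measured 12.1, 13.6 and 12.2 CPM in untreated cells, 64.7, 66.1 and 68.4 CPM with CKI and 477, 428 and 468 CPM with N-OmtOspc. ABCA1 and ASB2 differed between N-OmtOspc and CKI by 2.39 and -2.78 on the log2 scale.

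Other values differed between the batches, and the difference itself was not tested. ER chaperones were higher with N-OmtOspc than with CKI in 6 and lower in 11 of 18 cases. MT1E measured 77.3, 72.2 and 66.8 CPM with CKI and 859, 806 and 848 CPM with N-OmtOspc in batch 1, a rise of 3.54, whereas with N-Omt in batch 2 it was lower than with CKI (-1.04). CYP1A1 differed from CKI by -0.59 with N-OmtOspc and by -2.62 with N-Omt. The 2 comparisons differ in batch as well as in mixture, and these cannot be told apart.

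Oxymatrine with oxysophocarpine alone was set against untreated cells in batch 1, with 57.8% of genes DE and a median over all genes of 0.02. The genes that set N-Omt apart from CKI mostly moved the same way with these alkaloids alone. Of the 1471 genes higher with N-Omt than with CKI by at least 2-fold, 77.5% were higher than in untreated cells (51.5% of all genes). DE and higher were 52.8% (29.1% of all genes). Of the 1878 lower genes, 74.0% were lower (48.5% of all genes) and 54.0% were DE and lower (28.7% of all genes). Mitosis genes fell in 35 of 35 cases (median -1.08) and 12 of 20 cytokines rose (median 1.03). All 18 ER chaperones rose (median 1.29), and ATF3 measured 8.51, 8.28 and 8.74 CPM without treatment and 70.9, 73.4 and 76.4 CPM with the 2 alkaloids. MKI67 measured 119, 134 and 138 CPM with the 2 alkaloids, above every N-OmtOspc library.

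**Figure D5:**
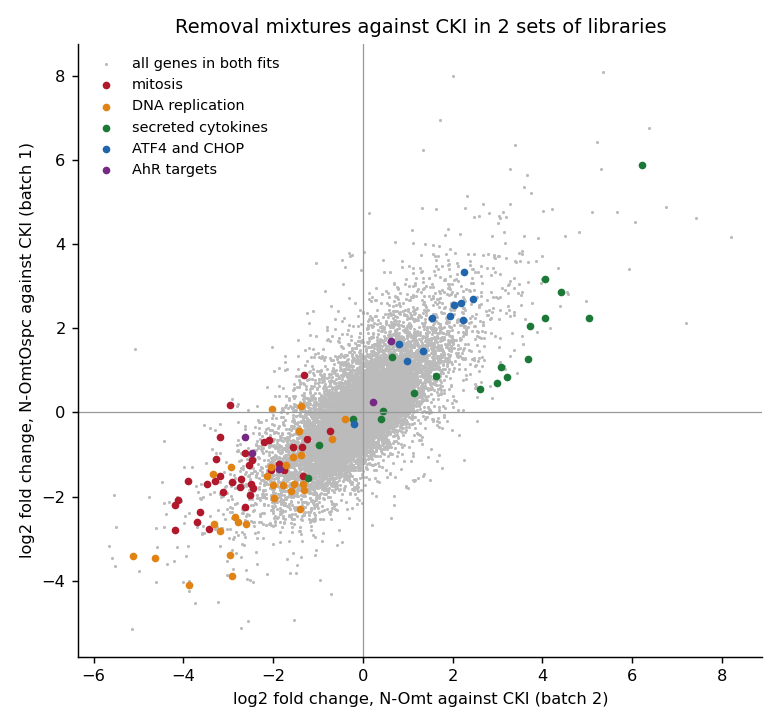
Log2 fold change of N-Omt against CKI in batch 2 (x axis) and of N-OmtOspc against CKI in batch 1 (y axis) for every gene tested in both, in grey, with 5 gene lists in colour. The comparisons share no library; most mitosis and DNA replication genes lie at the lower left, most cytokines and ATF4 and CHOP genes at the upper right.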

How the data were processed

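MDA-MB-231 messenger RNA was sequenced as strand-specific paired-end reads, and the authors deposited raw read counts per gene in 1 table of 27978 genes and 54 libraries. Per the labels' processing notes, FastQC 0.11.4, Trim Galore 0.3.7, STAR 2.5.3a, Subread 1.5.2 with featureCounts and edgeR 3.22.3 were used with the hg19 build; how reads shared by gene copies were counted is not given in the sources used here. Groups, times and batches came from the sample labels. The table holds no column of other samples.

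Counts were analysed in R 4.3.3 with edgeR 4.0.16 (TMM scaling, filterByExpr, glmQLFit and glmQLFTest) in one fit of the 18 batch 2 libraries at 48 h, and in a separate fit of the 18 batch 1 libraries at 48 h. Batch 2 libraries held 17673537 to 25453736 counted reads, and 15115 genes passed the filter. Genes with a Benjamini-Hochberg adjusted p-value under 0.05 were called differentially expressed (DE). CPM values were scaled by TMM. Standard errors were derived from the fold change and the quasi-likelihood F statistic. An exact permutation test of 3 against 3 libraries cannot give a p-value under 0.1, so none is given for single genes. The p-values set each difference between groups against the spread between libraries, estimated over the 18 libraries of each fit. They speak for these libraries only.

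The genes, lists and comparisons were chosen with earlier results of these data known. Named were the 10 largest rises and falls against untreated cells and the 8 against CKI (mean of at least 10 CPM, DE, no overlap). In each of the 28 gene lists the 2 highest and 2 lowest members were to be named. The 4 marker lists are described by sums and by how many members rose and fell. Marker genes named beside these sums did not follow the rule. All core genes of the study were to be named as well, but some genes are not reported here. Genes named outside this rule, such as those whose promoters are printed, were chosen after their values were seen. The E2F letters and the comparison of N-OmtOspc with untreated cells were also added after values were seen.

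Alternatives were RLE factors, library totals, other filters, DESeq2 1.42.0, other libraries in the fit, a replicate block, a 2-fold threshold and leaving out each library. Promoter windows came from RefSeq tables of GRCh38.p14, matched by symbol.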

Additional observations from a re-analysis of the deposited data

How the results depend on the processing

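The numbers of DE genes stayed within 1.5 times their values in 196 of 200 alternative counts, the exception being a threshold of at least 2-fold, which gave 1808 higher and 2055 lower genes with N-Omt against untreated cells and 1530 and 1920 against CKI. Leaving out 1 library gave 5591 to 5739 higher and 5843 to 5938 lower genes against untreated cells, and 5371 to 5479 and 5690 to 5729 against CKI. Samples with the same replicate number did not deviate together (correlation of deviations 0.0077 to 0.0102 with untreated and 0.0073 to 0.0529 with CKI), so the numbers were taken as names only. A replicate block gave 11880 DE genes in place of 11827 (19 lost, 72 gained) against untreated cells and 11581 in place of 11538 (19 lost, 62 gained) against CKI. The share of DE genes that were higher moved from 49.06% to at most 51.67% against untreated cells and from 48.63% to at least 45.63% against CKI.

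ANGPTL4 between N-Omt and CKI, not DE in any setting, turned sign to 0.0152 with RLE factors or DESeq2, to 0.0225 with a mean of at least 1 CPM, 0.0129 with 2 groups, 0.0235 without N-Omt replicate 2, 0.0254 without CKI replicate 2 and 0.0016 with all 54 libraries, and ranged from -0.0455 to 0.0254 without 1 library. APC turned to -0.0109 with library totals and to -0.0156 without CKI replicate 1 (range without 1 library -0.0156 to 0.0726). Against untreated cells, 22 gene results lost their call and 4 gained one; PALB2 did so in 10 settings. With all 54 libraries in one fit, LXR targets had 2 lower members, interferon-stimulated genes 1 higher, G1 regulators 2 higher and ER chaperones 3 higher. The cause was not tested. Low counts limited PGR, ESR1 and LGALS12.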
